A study of Mus musculus with 20 samples.

Results

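The 10 genes Reg3b, Reg3g, Retnlb, Lcn2, S100a8, S100a9, Nos2, Duox2, Duoxa2 and Saa1, which the gut lining and its recruited immune cells use against microbes, were followed through mouse colon RNA-seq. They were picked by gene name, and all 10 were found among the 56748 genes of the chow table and the 31184 genes of the high fat diet table. The colons came from mice in which Pcca had been deleted or left intact. The Pcca product is part of propionyl-CoA carboxylase, through which mitochondria pass propionate into the citric acid cycle.

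Each of 5 groups held 4 libraries. The HFD Vill mice carried floxed Pcca and Villin-Cre, which is active in the intestinal epithelium, and the HFD ff mice were floxed littermates without Cre. Both HFD groups were male, were given feed deriving 60% of its calories from fat for 12 weeks, starting at 6 weeks of age, and were killed at 18 weeks. The chow Vill mice had the same gut deletion, the chow Alb mice a deletion in liver through Albumin-Cre, and the chow ff mice the floxed alleles alone. All 3 chow groups were killed at 9 weeks, and the labels do not give their sex. All mice were fasted for 4 hours first. Colons were flushed and extracted whole, so muscle, stroma and immune cells contributed RNA beside the epithelium, and fewer cells of a type cannot be told apart from less RNA per cell. The labels number replicates without saying that each is a separate animal, so p-values measure the spread between these samples.

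The colonic epithelium keeps bacteria at a distance with secreted proteins, oxidants and metal-binding proteins. Many of these genes are switched on by microbes through interleukin-22, interleukin-17 and Toll-like receptor signals, so their levels are often read as a sign of bacterial contact or inflammation. Reg3b and Reg3g are bactericidal lectins, Retnlb is a goblet cell protein, Lcn2 binds bacterial siderophores, and S100a8 with S100a9 forms calprotectin, the metal-binding protein of neutrophils. Nos2 makes nitric oxide, Duox2 makes hydrogen peroxide at the apical membrane with its maturation factor Duoxa2, and Saa1 encodes an acute phase apolipoprotein that the gut epithelium also makes.

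Several members are gene neighbours in the deposited mm39 coordinates. Reg3b (chr6:78347640-78350449, + strand) and Reg3g (chr6:78443252-78445855, - strand) lie 92802 bases apart. Duox2 (chr2:122109728-122128930, - strand) and Duoxa2 (chr2:122129381-122133366, + strand) lie head to head with 450 bases between them. S100a8 (chr3:90576285-90577342) and S100a9 (chr3:90599939-90603028) are 22596 bases apart. The others are Retnlb (chr16:48637219-48639255), Lcn2 (chr2:32274645-32278264), Nos2 (chr11:78811613-78851080) and Saa1 (chr7:46389921-46392404).

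S100a8 and S100a9 had few reads, and their promoters are not printed. The promoters of Reg3b with Reg3g and of Duox2 with Duoxa2 are shown because the genes of each pair moved together across the HFD libraries. They are RefSeq sequences of build GRCm38.p6, in which 8 of the 10 genes were matched, and each runs from 250 bases upstream to the base before the annotated start. For Reg3b and Reg3g, capitals mark runs of 12 or more bases that both windows share, and shorter shared stretches are left unmarked. The Reg3b window (chr6:78370635-78370884, + strand) and the Reg3g window (chr6:78468875-78469124, - strand) share 1 such run, of 20 bases, which ends at the start of each gene:
Reg3b: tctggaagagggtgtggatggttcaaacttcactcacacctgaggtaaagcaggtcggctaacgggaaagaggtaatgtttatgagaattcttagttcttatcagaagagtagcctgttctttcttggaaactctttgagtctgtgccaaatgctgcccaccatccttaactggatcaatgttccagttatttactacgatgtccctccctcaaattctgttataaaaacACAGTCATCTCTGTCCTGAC
Reg3g: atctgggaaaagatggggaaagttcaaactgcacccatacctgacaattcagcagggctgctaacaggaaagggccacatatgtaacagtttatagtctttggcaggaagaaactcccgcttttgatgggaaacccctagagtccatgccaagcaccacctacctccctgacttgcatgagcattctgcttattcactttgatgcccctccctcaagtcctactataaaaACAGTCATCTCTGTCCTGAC

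In the windows of Duox2 (chr2:122298228-122298477, - strand) and Duoxa2 (chr2:122298650-122298899, + strand), capitals mark the letters TATAAAA:
Duox2: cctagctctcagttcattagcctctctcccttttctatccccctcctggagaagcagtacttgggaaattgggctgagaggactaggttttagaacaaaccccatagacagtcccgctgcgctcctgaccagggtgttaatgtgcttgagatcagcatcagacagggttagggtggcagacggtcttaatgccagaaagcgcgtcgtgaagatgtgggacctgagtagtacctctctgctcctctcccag
Duoxa2: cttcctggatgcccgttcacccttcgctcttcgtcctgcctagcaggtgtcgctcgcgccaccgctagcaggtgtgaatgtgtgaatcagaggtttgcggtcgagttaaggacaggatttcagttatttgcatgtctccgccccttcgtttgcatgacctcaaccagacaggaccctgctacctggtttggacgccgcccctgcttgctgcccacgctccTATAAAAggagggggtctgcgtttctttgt

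The letters TATAAAA, searched on both strands, were in 4 of the 8 matched windows. They began 29 bases upstream in Reg3b, 27 bases upstream in Reg3g, and 30 bases upstream in both S100a8 and Duoxa2; 5.3% of 27025 mouse promoters of the same length hold them. The STAT motif TTCNNNGAA, which reads the same on both strands, was in the Reg3b window alone of the 8, starting 129 bases upstream, and in 7.18% of all promoters. The 2 motifs do not overlap in Reg3b.

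Libraries held 16.9 to 24.4 M counted reads on HFD and 27.9 to 40.4 M on chow. Pcca itself was read at 33.4, 37.3, 32.6 and 33.7 CPM (reads of the gene per M counted reads, scaled between libraries) in HFD Vill libraries 1 to 4, against 28.9, 53.5, 31.1 and 59.5 CPM in HFD ff. It was at 27.9, 33.8, 29.4 and 29.7 CPM in chow Vill and 58.7, 39.2, 41.4 and 44.0 CPM in chow Alb, against 54.5, 39.8, 57.7 and 41.2 CPM in chow ff. Chow Vill lay wholly below chow ff, while HFD ff 1 and 3 lay below every HFD Vill library. Epithelial markers were present in all 20 libraries, but 5 distal colon genes (Hoxb13, Hoxd13, Hoxd12, Hoxa13 and Hoxd11) summed to 6.17 CPM in HFD ff 1 and 22.4 CPM in HFD ff 3, against 136 to 387 CPM in the other HFD libraries. Hoxb13, at 0 to 479 CPM over the 20 libraries, had the widest range and weighs most on differences in this sum. Hoxd12 and Hoxd11 reached at most 9.35 and 15.2 CPM. Slc10a2, the bile acid carrier of the ileum, was at 434 and 501 CPM in HFD ff 1 and 3, and at 270 and 235 CPM in chow Vill 1 and chow ff 2. Chow Alb 2 stood apart by squamous keratins, with a summed level of 109 CPM against 4.92 to 14.3 CPM in the other 19 libraries. Values without these libraries are given where they move a result.

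Per kilobase of transcript, the defence genes of these colons covered a wide range of levels. The median over 20 libraries was 475 CPM per kilobase for Retnlb, 348 for Saa1, 37.0 for Duox2 and 21.2 for Duoxa2. It was 1.80 CPM per kilobase for Reg3g, 1.28 for Nos2, 1.07 for Reg3b and 0.404 for Lcn2. S100a8 and S100a9 were close to silent. Within a group of 4, the highest library exceeded the lowest by 91.2 to 1066 times for Reg3b in the 4 groups without a 0, but by 1.77 to 4.43 times for Saa1, so the spread between libraries of 1 group set what could be compared.

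**Figure D1:**
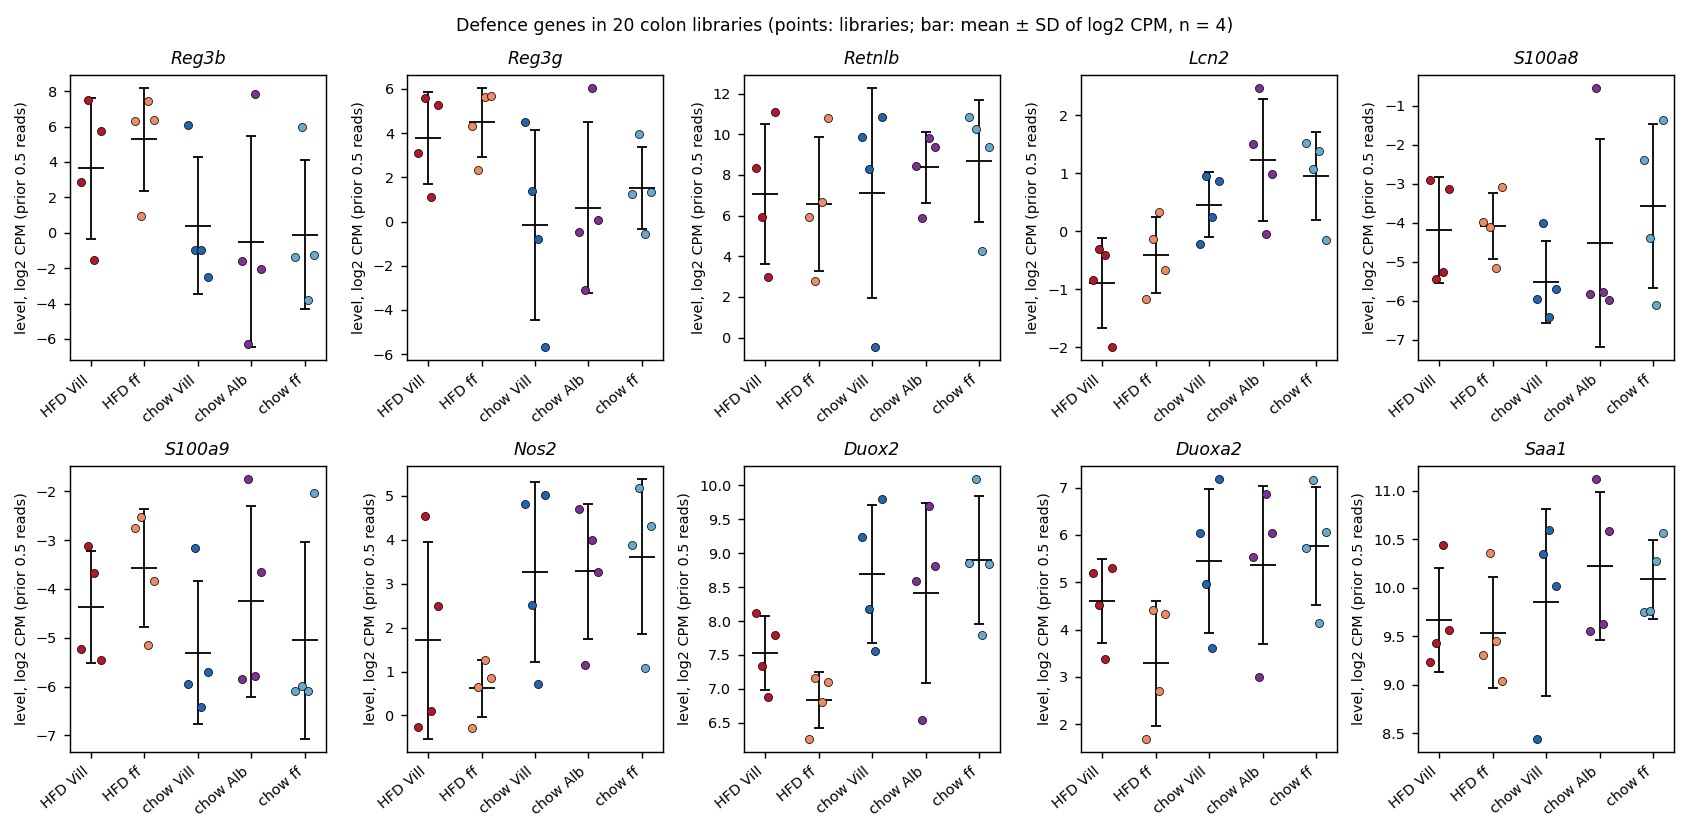
Levels of the 10 defence genes as log2 CPM with a prior of 0.5 reads (vertical axes), by group (horizontal axes); points are libraries, and bars are the mean and SD of 4. Reg3b, Reg3g and Retnlb span many log2 units within a group, while Lcn2 and Duox2 lie lower in the HFD groups than in the chow groups.

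No defence gene was called between genotypes. Of the 8 that could be tested, the edgeR test called 0 in each genotype comparison at an adjusted p under 0.05, and also 0 of 8 for the difference between diets of the Vill effect. Few genes were called at all, with 0.00508% of 19701 genes for chow Vill against chow ff, 0% for chow Alb against chow ff, 0.00508% for chow Vill against chow Alb, 0.00564% of 17715 genes for HFD Vill against HFD ff, and 0% of 19516 genes for the difference. For chow Alb against chow ff and for the difference, 867 and 496 genes had an unadjusted edgeR p under 0.05, and DESeq2 called 11 and 0. No member had groups that did not overlap, where 1.34% to 4.67% of genes did in the genotype comparisons. Any 2 of the 3 chow comparisons share a group, so their values are set side by side and are not independent. S100a8 and S100a9 failed the filter on low counts in every fit.

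The Reg3 lectins ranged within each group between libraries with almost no reads and libraries with many. Reg3b was at 7.17, 181, 0.313 and 53.4 CPM in HFD Vill 1 to 4, against 79.7, 1.94, 177 and 83.3 CPM in HFD ff. In chow Vill it was at 68.8, 0.497, 0.492 and 0.154 CPM, and in chow Alb at 0.315, 0, 231 and 0.223 CPM, against 0.379, 62.2, 0.0583 and 0.401 CPM in chow ff. On chow, 1 library of each genotype (Vill 1, Alb 3 and ff 2) thus carried 62.2 CPM or more, and the other 9 carried at most 0.497 CPM. The estimated log2 fold change of Reg3b was -0.54 for HFD Vill against HFD ff (95% interval -3.79 to 2.71) and 0.15 for chow Vill against chow ff (-5.22 to 5.52), both far from called.

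Reg3g repeated that pattern at lower levels. It was at 8.51, 48.8, 2.14 and 38.4 CPM in HFD Vill, against 20.0, 5.05, 49.4 and 50.8 CPM in HFD ff. It was at 22.5, 2.56, 0.563 and 0 CPM in chow Vill and 0.700, 0.104, 66.98 and 1.02 CPM in chow Alb, against 2.33, 15.5, 0.671 and 2.55 CPM in chow ff. The highest chow libraries were the same 3 as for Reg3b. Chow Alb against chow ff gave log2 fold changes of 1.88 for Reg3b and 1.71 for Reg3g (edgeR adjusted p = 0.99 for both); without chow Alb 3 these became -6.52 and -3.14.

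Within the HFD libraries Reg3b and Reg3g rose and fell together, with r = 0.972 over 8 libraries (exact permutation test, adjusted p = 0.00112 over 6 relations; rho = 0.881, adjusted p = 0.0109; r = 0.885 without the 2 libraries farthest from the Reg3b median). On chow the libraries form the separate high and low clusters above, so no r over all 12 is given. Among the 9 low chow libraries r was 0.536 (exact permutation test, p = 0.135). Of the other Reg3 genes, which are close copies whose reads the counting may not always separate, Reg3a had 21 reads each in HFD ff 1 and ff 3, 151 in chow Vill 1 and 22 in chow ff 2, and at most 2 in every other library. Reg3d had at most 1 read anywhere.

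The libraries with high Reg3b and Reg3g were those with low distal colon markers on chow. The 3 high Reg3b libraries had summed Hox markers of 34.8 to 59.6 CPM, against 158 to 726 CPM in the 9 low ones. These 3 libraries also had the most ileal Slc10a2 on chow. It was at 270 CPM in Vill 1, 235 CPM in ff 2 and 27.1 CPM in Alb 3, against 0.992 to 10.6 CPM in the 9 low ones. On HFD, Slc10a2 was at 434 and 501 CPM in ff 1 and 3, where Reg3b was at 79.7 and 177 CPM. In HFD Vill 2 it was at 2.02 CPM, where Reg3b was at 181 CPM. The part of ileal tissue in the Reg3b levels was not tested. Because the chow libraries form these clusters, no r of Reg3b or Reg3g with the markers over all 12 is given. Among the 9 low libraries r of Reg3b with the markers was -0.389 (exact permutation test, p = 0.302). A fit with the markers as a covariate is described with the diet comparison.

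**Figure D2:**
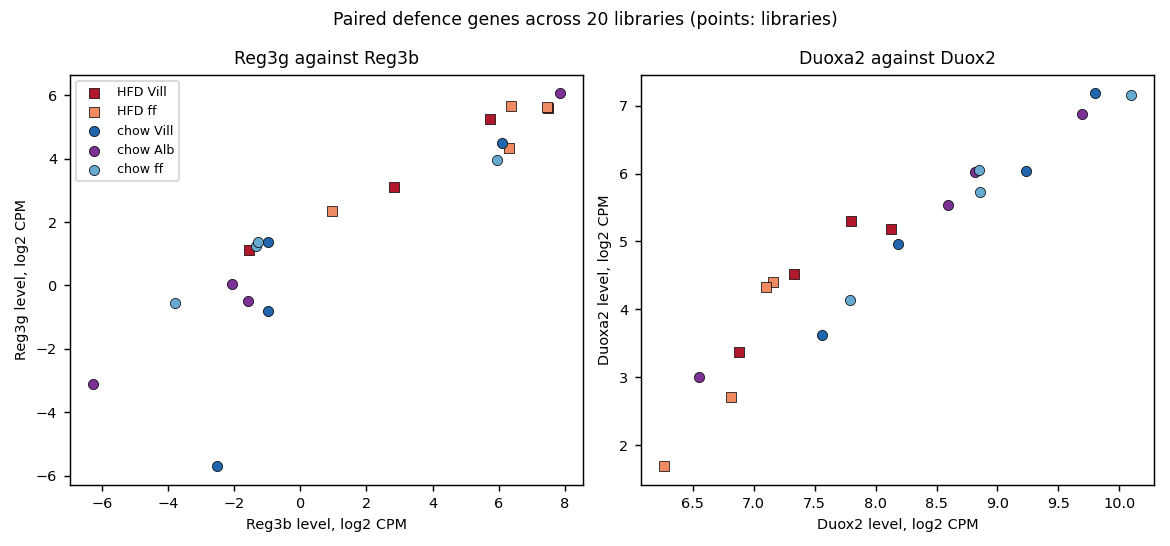
Reg3g against Reg3b and Duoxa2 against Duox2, as log2 CPM with a prior of 0.5 reads on both axes; points are the 20 libraries, squares HFD and circles chow. Both pairs lie along a diagonal, and HFD ff 1 and 3 have the lowest Duoxa2 for their Duox2.

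Retnlb, the resistin-like protein that goblet cells secrete, had the widest spread of the members without a 0 and was not called between genotypes. It was at 318, 61.1, 7.89 and 2147 CPM in HFD Vill, against 61.9, 6.88, 102 and 1780 CPM in HFD ff. It was at 924, 308, 0.703 and 1826 CPM in chow Vill and 342, 58.9, 887 and 671 CPM in chow Alb, against 1872, 1225, 19.3 and 662 CPM in chow ff. Each group had a library below 62 CPM and a library above 880 CPM, and the highest chow Vill library exceeded the lowest by 2597 times. The log2 fold change was 0.37 for HFD Vill against HFD ff (-3.57 to 4.31) and -0.30 for chow Vill against chow ff (-3.43 to 2.83). Once group means were removed, the genes most like Retnlb over 20 libraries, among 15733 compared, were Itln1 (r = 0.976), an intestinal lectin, Chrm3 (r = 0.975), a muscarinic receptor, and Ang4 (r = 0.955), a secreted antimicrobial ribonuclease.

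Lcn2 was scarce, with 5 to 214 reads a library. It was at 0.535, 0.782, 0.731 and 0.227 CPM in HFD Vill, against 0.423, 0.894, 1.23 and 0.607 CPM in HFD ff. It was at 0.841, 1.91, 1.17 and 1.81 CPM in chow Vill and 2.83, 5.56, 0.949 and 1.97 CPM in chow Alb, against 2.86, 2.09, 2.60 and 0.888 CPM in chow ff. The highest value belonged to chow Alb 2, the library with squamous keratins; without it the log2 fold change of Lcn2 for chow Alb against chow ff was -0.13, against 0.43 with it. The smallest edgeR p of any member in the chow genotype comparisons was that of Lcn2 in chow Vill against chow Alb, at a log2 fold change of -0.98 (-2.12 to 0.15; adjusted p = 0.611).

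Neutrophil calprotectin was almost undetected. S100a8 had 56 reads over all 20 libraries and none in 10 of them, and S100a9 had 36 reads and none in 11. Chow Alb 2 held 26 of the S100a8 reads and 11 of the S100a9 reads, and chow ff 4 held 13 and 8. Neutrophil markers were equally sparse, with summed levels of 0.963 to 2.72 CPM among HFD Vill libraries, 1.35 to 2.24 CPM in HFD ff, 1.84 to 3.48 CPM in chow Vill, and 2.41 to 6.33 CPM in chow ff. Chow Alb reached 25.9 CPM in Alb 2, of which Ltf gave 23.2 CPM, while 3 of 11 neutrophil markers were at 0 there. On chow r between S100a8 and S100a9 was 0.716 over 12 libraries (permutation test, adjusted p = 0.014; rho = 0.629, adjusted p = 0.0396), and 0.14 without chow Alb 2 and chow ff 4, on which the relation rests. In the 8 HFD libraries r was -0.337 (exact permutation test, adjusted p = 0.39). The gene most like S100a8 was Krt13 (r = 0.809), a squamous keratin, at counts too low to weigh.

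Among the oxidant genes, Nos2, Duox2 and Duoxa2 had higher means in HFD Vill than in HFD ff, but none was called. Duox2 was at 279, 161, 117 and 223 CPM in HFD Vill, against 76.9, 143, 112 and 138 CPM in HFD ff. Its mean was 195 ± 70.6 CPM in HFD Vill and 117 ± 30.1 CPM in HFD ff (SD, n = 4 each), a log2 fold change of 0.72 (0.08 to 1.36) with an unadjusted edgeR p of 0.0315 and an adjusted p of 0.932. An exact permutation test gave p = 0.114, where 4 against 4 can reach 0.0286. Of all genes tested, 3.45% had an unadjusted p under 0.05 in this comparison. Duox2 was at 602, 291, 188 and 892 CPM in chow Vill and 386, 93.5, 828.8 and 452 CPM in chow Alb, against 465, 1096, 221 and 460 CPM in chow ff, with log2 fold changes of -0.18 and -0.35 against chow ff.

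Duoxa2 was at 36.4, 22.9, 10.3 and 39.3 CPM in HFD Vill, against 3.21, 21.1, 6.51 and 20.0 CPM in HFD ff. The log2 fold change was 1.09 (-0.29 to 2.47; edgeR adjusted p = 0.932). The 2 lowest values were those of HFD ff 1 and 3, the libraries low in distal markers, and without them the fold change was 0.41 for Duoxa2 and 0.49 for Duox2. In chow Vill it was at 65.5, 31.2, 12.3 and 145 CPM and in chow Alb at 46.4, 8.00, 117 and 65.3 CPM, against 53.0, 142, 17.6 and 66.6 CPM in chow ff.

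Duox2 and its maturation factor moved together on either diet. The correlation was r = 0.931 over 8 HFD libraries (exact permutation test, adjusted p = 0.00112; rho = 0.976, adjusted p = 0.00119; r = 0.922 without the 2 farthest). Over 12 chow libraries it was r = 0.983 (permutation test, adjusted p = 6e-05, from the smallest p that 100000 resamples can give; rho = 0.958; r = 0.976 without the 2 farthest). Per kilobase the ratio of Duox2 to Duoxa2 ran between 1.33 and 2.68 in HFD Vill and between 1.59 and 5.62 in HFD ff, with 5.62 and 4.05 in HFD ff 1 and 3. It was 1.44 to 3.62 in chow Vill, 1.63 to 2.75 in chow Alb and 1.63 to 2.95 in chow ff. The relatives Duox1 and Duoxa1 had 5 to 41 and 7 to 77 reads a library, against 1818 to 34623 for Duox2. In the deposited coordinates Duoxa1 overlaps Duoxa2 by 695 bases on the opposite strand, and without counting known to use strand, reads there cannot be told apart. The genes most like Duox2 after group means were removed were Gm14137 (r = 0.924), Smox (r = 0.917), a spermine oxidase, and Plaur (r = 0.913), the urokinase receptor. For Duoxa2 they were the stress factor Atf3 (r = 0.908), Myl12a (r = 0.896) and Cystm1 (r = 0.896).

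Nos2 was at 0.803, 23.1, 1.04 and 5.58 CPM in HFD Vill, against 0.803, 1.55, 2.36 and 1.77 CPM in HFD ff. The highest HFD library was Vill 2, and the lowest of both groups were alike. The log2 fold change of 2.21 (-0.03 to 4.46; edgeR adjusted p = 0.932; exact permutation p = 0.4) became 0.60 without HFD Vill 2. Nos2 was at 28.1, 5.74, 1.62 and 32.6 CPM in chow Vill and 26.0, 2.21, 16.0 and 9.62 CPM in chow Alb, against 14.8, 36.1, 2.10 and 19.9 CPM in chow ff. The genes closest to it were Dcp2 (r = 0.903), a decapping enzyme, Eif1a (r = 0.882) and BC031181 (r = 0.854).

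Saa1 was abundant in every library and was not called between genotypes. It was at 603, 691, 1396 and 760 CPM in HFD Vill, against 633, 1310, 701 and 528 CPM in HFD ff. It was at 349, 1300.2, 1544 and 1041 CPM in chow Vill and 752, 2232, 793 and 1541 CPM in chow Alb, against 859, 866, 1240 and 1519 CPM in chow ff. The log2 fold changes were 0.11 for HFD Vill against HFD ff (-0.69 to 0.91) and -0.08 for chow Vill against chow ff (-1.06 to 0.90). The near copy Saa2 had 2 to 25 reads a library, against 10779 to 85969 for Saa1, and how reads that fit both were counted is not given in the sources used here. The genes closest to Saa1 were Osbpl6 (r = 0.954), Odad4 (r = 0.942) and BC037704 (r = 0.941).

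**Figure D3:**
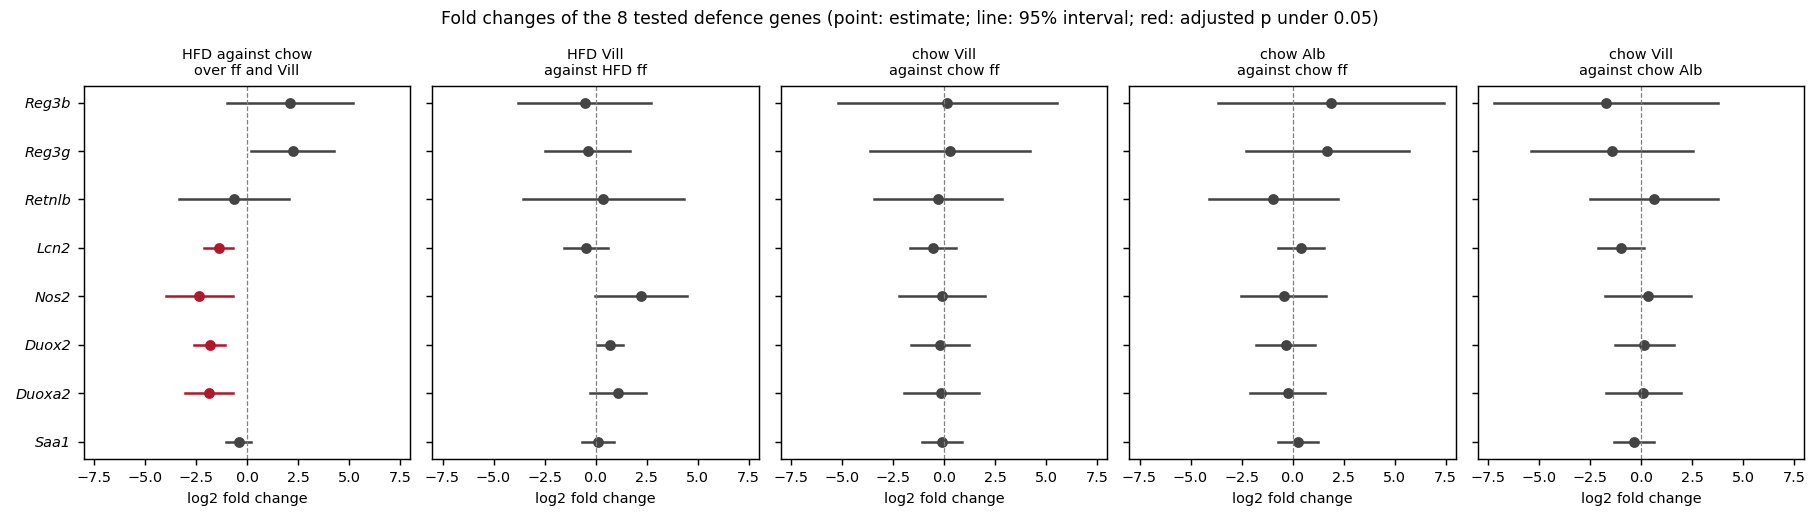
Log2 fold changes (horizontal axes) of the 8 tested defence genes in 5 comparisons; points are edgeR estimates, lines 95% intervals, and red marks an adjusted p under 0.05. Lcn2, Nos2, Duox2 and Duoxa2 are red in HFD against chow, and no gene is red in a genotype comparison.

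Saa1 and Duox2 ran in opposite directions along the distal colon markers on chow, a relation looked for after the levels were seen. Over 12 chow libraries the log2 level of Saa1 and of the summed markers had r = 0.895 (permutation test, adjusted p = 0.00016 over 16 relations; rho = 0.93, adjusted p = 0.00096; r = 0.864 without chow Vill 1 and chow ff 2). Duox2 had r = -0.723 (adjusted p = 0.0406; rho = -0.769, adjusted p = 0.0384; r = -0.706 without those libraries). Leaving out single libraries gave adjusted p of up to 0.0929 for Duox2 and of at most 0.00608 for Saa1. Nos2 (r = -0.668), Duoxa2 (r = -0.65), Retnlb (r = -0.503) and Lcn2 (r = 0.427) did not pass over all 12 (permutation tests, adjusted p = 0.054, 0.0572, 0.176 and 0.222). With group means removed, Saa1 and Duox2 passed again.

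None of the 8 members passed this test in the 8 HFD libraries, where the lowest adjusted p was 0.0663, for Duoxa2 with r = 0.777 (exact permutation test). Leaving out HFD ff 1 and 3, the libraries lowest in the markers, moved r in different ways. Over the other 6 libraries r was -0.606 for Duox2, -0.624 for Duoxa2, -0.272 for Nos2 and 0.227 for Lcn2, against 0.594, 0.777, 0.234 and -0.0035 over all 8, so the sign turned for these genes. It was 0.965 for Saa1, -0.766 for Reg3b, -0.713 for Reg3g and -0.704 for Retnlb, against 0.511, -0.575, -0.402 and -0.074 over all 8, so these relations were larger without the 2 libraries.

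**Figure D4:**
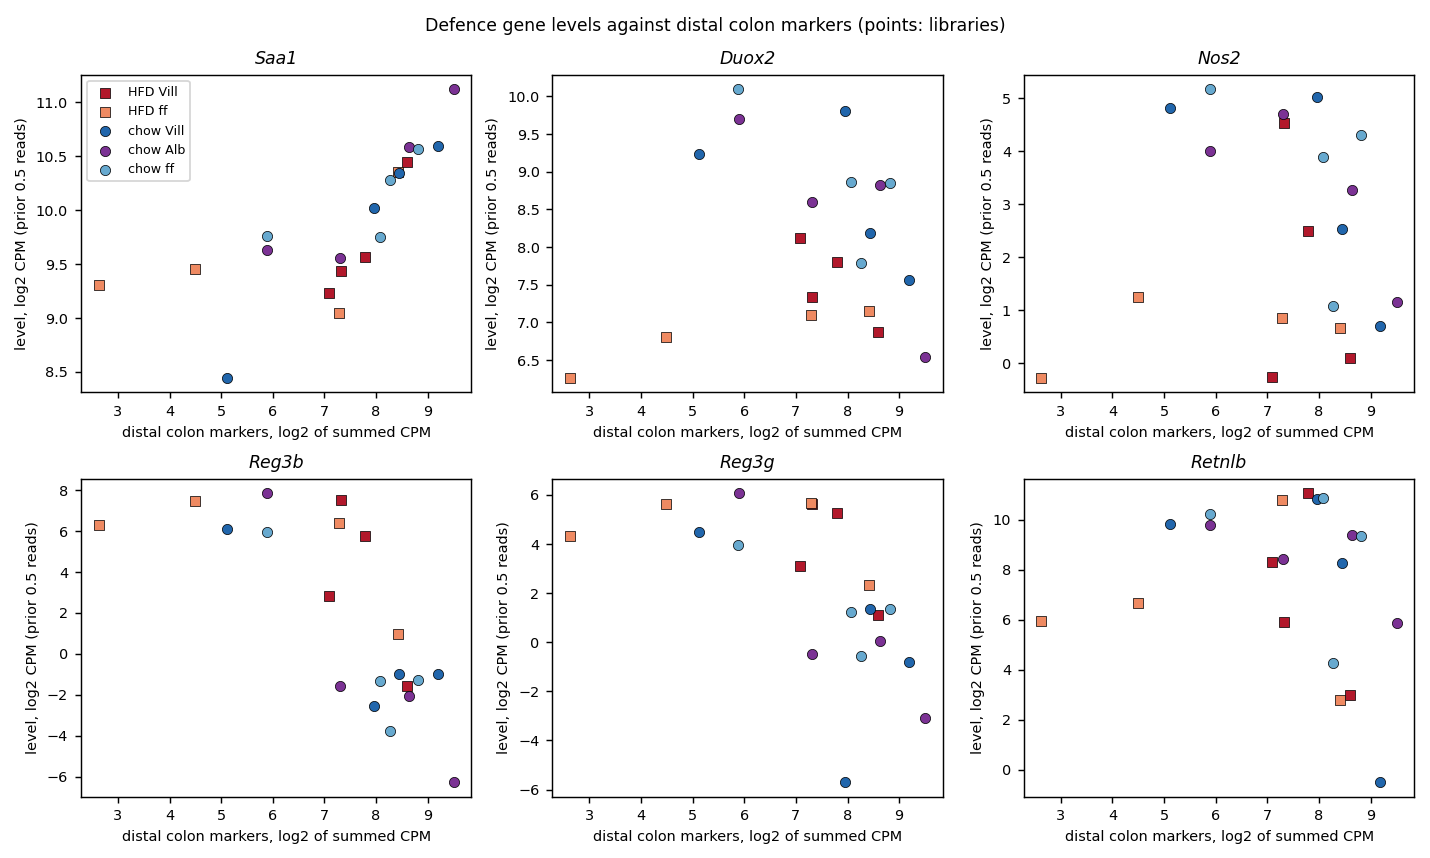
Levels of 6 defence genes (vertical axes, log2 CPM with a prior of 0.5 reads) against the log2 of the summed CPM of 5 distal colon markers (horizontal axes); squares are HFD and circles chow libraries. Saa1 climbs with the markers, Duox2 declines with them on chow, and the 2 squares farthest left are HFD ff 1 and 3.

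Between the diets, the oxidant genes and Lcn2 were lower in the HFD colons and the Reg3 lectins leaned the other way. Averaged over ff and Vill, edgeR called 4 of the 8 tested members, all lower on HFD, in a comparison where 26.6% of 19516 genes were called, 12.5% higher and 14.1% lower. Diet, age, the count table and sex, as read from sex-linked genes, differ together here and cannot be told apart. The HFD libraries had 1458 to 2756 Ddx3y reads and at most 12 Xist reads, as in males. The chow libraries had no Ddx3y and 22486 to 59322 Xist reads, as in females. The median log2 fold change was -1.02 over the 8 members and -0.02 over all genes tested. No member separated the diets without overlap, as 5.92% of genes did.

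Duox2 averaged 156 CPM over the 8 HFD libraries and 527 CPM over the 8 chow libraries, a log2 fold change of -1.82 (SE 0.36; edgeR adjusted p = 0.00195; exact permutation p = 0.00124). Duoxa2 averaged 20.0 CPM on HFD and 66.7 CPM on chow, a change of -1.87 (SE 0.55; edgeR adjusted p = 0.021). Lcn2 averaged 0.679 CPM on HFD and 1.77 CPM on chow, a change of -1.39 (SE 0.33; edgeR adjusted p = 0.00655). Nos2 averaged 4.63 CPM on HFD and 17.6 CPM on chow, a change of -2.35 (SE 0.76; edgeR adjusted p = 0.0344). Duox2 and Lcn2 were called under all 22 alternatives, Duoxa2 under 20 and Nos2 under 10. Without HFD ff 1 and 3 the adjusted p was 0.0773 for Duoxa2 and 0.0971 for Nos2, and without chow Vill 4 it was 0.0539 and 0.0696.

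The lectins were not called. Reg3b averaged 73.0 CPM on HFD and 16.6 CPM on chow, a log2 fold change of 2.10 (-0.98 to 5.17; edgeR adjusted p = 0.308). Reg3g averaged 27.9 CPM on HFD and 5.84 CPM on chow, a change of 2.23 (0.19 to 4.27; adjusted p = 0.1). Both were called under 3 of 22 alternatives. With the distal colon markers as a covariate the changes were 3.39 (edgeR adjusted p = 0.0306) for Reg3b and 2.46 (adjusted p = 0.026) for Reg3g. That fit was chosen after the data were seen. Its slope draws on the high and low chow clusters, so its calls are no independent support. The other alternatives that called both lectins were without chow ff 2 and without chow Vill 1, which are high in ileal Slc10a2. These are also the chow ff and Vill libraries highest in Reg3b (62.2 and 68.8 CPM) and in Reg3g (15.5 and 22.5 CPM). Leaving either out lowers the chow level of the tested gene by itself, so these calls are no independent support. Without chow ff 2 the values were 4.99 for Reg3b and 2.98 for Reg3g, and without chow Vill 1 they were 4.81 and 3.51. Without HFD ff 1 and 3, the HFD libraries highest in Slc10a2, neither lectin was called. Over all 22 alternatives the change ran from 1.30 to 4.99 for Reg3b and from 1.93 to 3.51 for Reg3g. Retnlb had a change of -0.65 (-3.35 to 2.04) and Saa1 of -0.42 (-1.03 to 0.20); neither was called under any of the 22 alternatives.

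Markers of other cells were called in both directions between the diets, and the markers named here were chosen after their values were seen. Of all 19516 genes tested, 14.1% were called lower and 12.5% higher. Lists with only 1 called marker are therefore not read as a change in those cells. Summed macrophage markers were 48.9 to 72.3 CPM on HFD and 69.4 to 206 CPM on chow, with 8 of 10 markers called lower, and B and plasma cell markers were 248 to 537 CPM on HFD and 439 to 1430 CPM on chow, with Jchain and Derl3 of 8 called lower. Goblet cell markers were 8671 to 54121 CPM on HFD and 13242 to 72425 CPM on chow, with Fcgbp, Tff3 and Zg16 of 10 called lower. Colon epithelium markers were 11587 to 19061 CPM on HFD and 13640 to 26816 CPM on chow, with Aqp8 of 10 called lower. Adipocyte markers were 61.5 to 159 CPM on HFD and 169 to 383 CPM on chow, with Cfd, Retn and Pck1 of 7 called lower. Pck1 alone gave 56.2 to 159 CPM on HFD and 158.6 to 217.5 CPM on chow, the largest part of these sums. Adipoq ran from 0 to 3.59 CPM on HFD and from 0 to 20.5 CPM on chow, and was not called (edgeR adjusted p = 0.0819). Csf3r of 3 tested neutrophil markers and Hoxd12 of 5 distal colon markers were called lower, the squamous keratin Krt13 of 5 was called higher, and of 9 enterocyte markers Apob was called higher and Anpep lower. No tested marker of IL-17 and IL-22 producing lymphocytes (3 of 7 tested), pancreas (2 of 10), hepatocytes (6 of 10) or smooth muscle (8 of 8) was called. Il22, Il17f and Il23r had too few reads to be tested. No macrophage marker was at 0. The part of these cells in the lower levels of Lcn2, Nos2, Duox2 and Duoxa2 was not tested. With the distal markers as a covariate, the 4 changes were -1.33, -2.47, -1.86 and -1.87, and all were called. That fit, chosen after seeing the data, gave both diets the same slope. However, r of Duox2 with the markers was -0.723 on chow and 0.594 on HFD, and r of Duoxa2 was -0.65 and 0.777. It therefore cannot adjust these genes for the markers, whose part was not tested either.

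Other genes of the same defence differed between lists. Of 23 tested secreted antimicrobial and mucus genes 8 (34.8%) were called lower and 0 higher, where 14.1% of all genes were called lower, with a median log2 fold change of -0.89. The 8 include Zg16 and Fcgbp, also counted above as goblet cell markers, and Retn, counted as an adipocyte marker. This share is therefore not independent of those lists. Lypd8, which binds flagella, averaged 5008 CPM on HFD and 10202 CPM on chow and had no overlap between diets (log2 fold change -1.05, edgeR adjusted p = 0.0014). Zg16, a lectin that clumps Gram-positive bacteria, changed by -1.13 (adjusted p = 0.00768), the peptidoglycan binder Pglyrp1 by -0.54, the mucin Muc13 by -0.47 and the lysozyme Lyz2, also a macrophage product, by -1.07. Of 16 oxidant enzymes and partners, Cyba, the shared membrane subunit of the NADPH oxidases, was the 1 called lower, at -0.46, a share of 6.25% that lies below that of all genes.

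The alpha-defensins, antimicrobial peptides that Paneth cells of the small intestine secrete and that were counted among the Paneth cell markers, went the other way. Of 7 tested Paneth cell markers 4, all alpha-defensins, were called higher on HFD and 0 lower, where 12.5% of all genes were called higher. The tested markers Itln1 (-1.65), Lyz1 (-0.19) and Mmp7 (0.36) were not called. Defa24 reached 3.14 CPM on HFD and 0.633 CPM on chow, Defa22 1.74 CPM on HFD and 0.0875 CPM on chow, and Defa30 1.47 CPM on HFD and 0.0292 CPM on chow (edgeR adjusted p = 0.00827, 0.00272 and 0.00169). Defa21 reached 1.33 CPM on HFD and had no reads in the 8 chow libraries (edgeR adjusted p = 0.00363). The highest Defa24 and Defa22 values were those of HFD ff 3, a library high in ileal Slc10a2. HFD Vill 2, which was not, held 3.03 CPM of Defa24 and 1.47 CPM of Defa22. Changes of these genes without HFD ff 1 and 3 are not given here. All 4 were at 0 in HFD Vill 1, levels were low throughout, and these genes are close copies whose reads the counting may not separate. The summed Paneth cell markers were 9.30 to 113 CPM on HFD and 9.57 to 185 CPM on chow.

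Of 31 tested cytokines, receptors and other genes of the signals that can induce the members, 13 (41.9%) were called lower and 1 higher, with a median of -0.40. The list also holds inhibitors of these signals (Nfkbia, Socs1, Socs3 and Il22ra2), so this is not a share of inducers. The NF-kB feedback inhibitor Nfkbia changed by -0.51, the NF-kB subunit Rela by -0.40, the interleukin-17 receptor chains Il17rc and Il17ra by -0.52 and -0.56, and Nfkbiz, an interleukin-17 target, by -0.84 (61.5 CPM on HFD and 110 CPM on chow, without overlap). Il4, named after its value was seen, was the 1 called higher, at 0.98. Of 20 microbe-sensing genes 3 (15.0%, close to the share of all genes) were called lower, namely the adaptor Ticam1 (-0.75), the lipopolysaccharide sensor Casp4 (-1.17) and the DNA sensor Tlr9 (-1.96), and 1 higher, the Tlr4 partner Ly96 (0.51). In the genotype comparisons and the difference between diets no gene of the 4 lists was called, and the 3 most abundant genes of each list had log2 fold changes of -0.97 to 0.74 between genotypes. These include the mucus genes Clca1 and Muc2, the peroxidase Gpx2, the signal transducer Stat3 and the inflammasome genes Nlrp6 and Casp1. Il22 had at most 6 reads in any library, in chow Vill 3, and Il17a, listed in the chow table only, is not analysed here.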

How the data were processed

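Per the labels, poly-A libraries were made from whole flushed colon. The authors deposited raw read counts per gene, in a chow table and an HFD table; tools listed in the submitters' processing notes, with no roles, are edgeR 3.22.5, DESeq2 1.20.0, featureCounts 1.5.0-p3 and HISAT2 2.0.5, beside the mm39 build, and strand handling is not given in the sources used here. Another 28 per-sample columns (FPKM and normalized) stayed unused. Log2 fold changes and p-values are in the authors' deposited tables too; over 40 pairs of member and comparison in the authors' deposited table the smallest adjusted p-value is 0.621.

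Counts were tested with edgeR 4.0.16 (TMM, default filter on low counts, quasi-likelihood F test) in R 4.3.3, with p-values adjusted by Benjamini-Hochberg over all genes tested and calls at 0.05. One fit held the 12 chow libraries, one the 8 HFD libraries and one the 16 ff and Vill libraries. Replicates were unpaired: deviations of same-numbered libraries correlated at -0.526 to 0.427. Printed CPM were scaled by TMM over all 20 libraries and the 31184 genes in both tables, with 0.5 reads added for log2; r and rho are over these. Exact tests were 2-sided. DESeq2 1.42.0, other size factors, no filter, a replicate block and single left-out libraries were alternatives; the fit with distal markers was chosen after seeing the data. The fits were tested on simulated data.

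The members and gene lists were chosen with earlier results of these data known. All members were named in every group; of the lists, up to 5 called genes per comparison with the smallest p and fixed relatives; for each member, the genes closest in r. Protein sequences were not used here.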

Additional observations from a re-analysis of the deposited data

How the results depend on the processing

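The genotype comparisons gave 0 calls among the 8 members under every alternative run, but many signs turned. With a replicate block the log2 fold change of chow Vill against chow ff was -0.95 for Reg3b and -1.24 for Reg3g, of chow Alb against chow ff -0.55 and -0.40, of chow Vill against chow Alb -0.33 for Retnlb, -0.31 for Nos2 and -0.22 for Duoxa2, and of the difference between diets -0.012 for Lcn2; same-numbered libraries were not paired. With the distal marker covariate, Reg3b was -0.29 and Reg3g -0.63 for chow Vill against chow ff, Reg3b 0.74, Retnlb -0.50 and Saa1 -0.21 for HFD Vill against HFD ff, and Reg3b 2.14, Reg3g 1.00, Lcn2 -0.030 and Saa1 -0.26 for the difference. Without HFD ff 1 and 3, Reg3b was 0.51, Retnlb -0.50 and Saa1 -0.077 for HFD Vill against HFD ff, and Reg3b 0.35, Retnlb -0.18 and Saa1 -0.0032 for the difference; the r of Lcn2 with the distal markers on HFD was 0.226 with group means removed. The cause of each turn was not tested.

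Leaving out 1 library at a time also turned signs. Ranges for chow Vill against chow ff were -5.33 to 5.94 for Reg3b, -2.33 to 1.78 for Reg3g, -1.22 to 0.26 for Retnlb, -0.65 to 0.47 for Nos2, -0.66 to 0.37 for Duox2, -0.97 to 0.48 for Duoxa2 and -0.32 to 0.20 for Saa1. For chow Alb against chow ff they were -6.52 to 7.69 for Reg3b, -3.14 to 3.23 for Reg3g, -0.13 to 0.72 for Lcn2, -0.98 to 0.14 for Nos2, -0.86 to 0.22 for Duox2, -0.82 to 0.38 for Duoxa2 and -0.12 to 0.44 for Saa1. For chow Vill against chow Alb they were -7.20 to 6.65 for Reg3b, -4.04 to 3.40 for Reg3g, -0.27 to 1.10 for Retnlb, -0.21 to 0.87 for Nos2, -0.31 to 0.66 for Duox2, -0.73 to 0.67 for Duoxa2 and -0.57 to 0.023 for Saa1. For HFD Vill against HFD ff they were -2.11 to 0.10 for Reg3b, -0.96 to 0.0018 for Reg3g, -1.91 to 3.43 for Retnlb and -0.23 to 0.46 for Saa1. For the difference between diets they were -6.47 to 4.76 for Reg3b, -2.17 to 1.92 for Reg3g, -1.59 to 3.74 for Retnlb, -0.13 to 0.36 for Lcn2 and -0.14 to 0.54 for Saa1. On HFD, r with the distal markers ranged from -0.413 to 0.317 for Lcn2, -0.087 to 0.369 for Nos2 and -0.268 to 0.135 for Retnlb.

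Counts of called genes moved with DESeq2 to 3 for chow Vill against chow ff, 11 for chow Alb against chow ff, 90 for chow Vill against chow Alb and 2 for HFD Vill against HFD ff. Without the filter on low counts chow Vill against chow ff gave 2, with the replicate block it and chow Vill against chow Alb gave 0, and without HFD ff 1 and 3 HFD Vill against HFD ff gave 2. With the block Nos2 on HFD against chow had an adjusted edgeR p of 0.0594, and the block changed no other call. The low reads of S100a8, S100a9 and Lcn2 limit what could be seen of them.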
